A study of Mus musculus with 4 samples.

Results

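The genes described here were chosen for names of cell cycle and mitosis genes: mouse genes whose symbols carry the names of cell division cycle genes (Cdc), cyclin-dependent kinases and their inhibitors (Cdk, Cdkn), cyclins (Ccn), minichromosome maintenance proteins (Mcm), centromere proteins (Cenp), kinesins (Kif), subunits of the anaphase-promoting complex (Anapc), the Aurora and Bub kinases and a few single genes such as Mki67, Pcna, Rrm2 and Btg1. They were picked by symbol alone among the genes with a named array probe, so they also include genes whose names stem from the cell cycle but whose proteins mainly work elsewhere. Of 8137 such genes 69 carried one of these names, and 35 of the 69 exceeded the background level on at least 1 array, of 2702 genes that did so in all. Background was the mean plus 3 standard deviations of 43 probes for spike-in controls and bacterial or plant genes, which lay between 8.63 and 8.69 on the log2 scale of the deposited values.

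RNA was measured on 4 single-colour Illumina arrays; cells were sorted ex vivo, the plasma cells from spleen, from mice on the C57BL/6 background that carry the prmd1-gfp reporter, in which green fluorescent protein reports expression of Blimp1, the transcription factor that drives plasma cell differentiation; all 3 groups share this genotype. B220+ IgD+ cells made up the naive follicular B cell group (1 array), and plasma cells were sorted as CD138+ cells with high Blimp1 reporter (Blimp1-hi, 1 array) or intermediate reporter (Blimp1-int, 2 arrays). Each plasma cell sort drew on 5 to 10 pooled animals, no treatment is recorded, and the labels used here state no age. The source and cell type fields of the 3 plasma cell arrays name follicular B cells; the groups follow the titles and the sort gates instead.

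Cells divide by copying their DNA in S phase and separating the copies in mitosis. Cyclins and their kinases start each step, minichromosome maintenance proteins unwind the DNA, kinetochore proteins attach chromosomes to the spindle, and the anaphase-promoting complex, switched on by Cdc20, marks cyclins and other proteins for destruction so that the cell can leave mitosis. In the B cell lineage, naive follicular cells rest, activated cells and plasmablasts divide, and mature plasma cells have left the cycle; Blimp1 rises along this path.

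The sort was checked on its markers. The reporter probe eGFP lay at 8.29 in naive cells, below background, against 11.23 in Blimp1-hi and 10.55 and 10.82 for the Blimp1-int pair. All 6 tested plasma cell markers were higher in both plasma cell populations than in naive cells. Of 6 tested markers of naive B cells 5 were called lower in Blimp1-int and 4 in Blimp1-hi. Markers of cells outside the B lineage and of germinal centres could be followed only in part: none of 3 T and NK cell markers and 8 granulocyte markers with a named probe exceeded background on any array. Of 4 erythroid markers 1 did, Hba-a1 on the naive array, and the summed linear level of the 4 was 1463 in naive cells and 1365 in Blimp1-hi, against 1328 and 1444 for the Blimp1-int pair. Of 9 macrophage and dendritic cell markers 2 did, Apoe on all arrays and Vcam1 on 1, and the summed level of all 9 was 3170 in naive cells and 3552 in Blimp1-hi, against 3086 and 3398 for the Blimp1-int pair. Of 7 stromal and endothelial markers 2 did, Pecam1 and Eng, and the summed level of all 7 was 2760 in naive cells and 2454 in Blimp1-hi, against 2336 and 2401 for the Blimp1-int pair. Of 10 germinal centre B cell markers, a dividing population, only Mef2b had a named probe, at 8.80 in naive cells and 8.94 in Blimp1-hi, against 8.77 and 8.88 for the Blimp1-int pair. The part of other cells in the results below was not tested.

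Differences are given on the log2 scale with the standard error (SE) from a limma fit of 3 groups to all 4 arrays, and p-values are limma's, two-sided, after Benjamini-Hochberg adjustment over all 2702 genes. A gene was called higher or lower at an adjusted p under 0.05 together with a difference of at least 1, which is 2-fold. With 1 array each for naive cells and Blimp1-hi, the only spread in the fit is that of the Blimp1-int pair, which may be technical since nothing says that the 2 arrays came from separate animals. For the 35 genes, the gap between the paired arrays was between 0.01 and 0.34 with a median of 0.11. The number of arrays limits the precision. In these bulk samples a smaller share of dividing cells and less RNA per dividing cell cannot be told apart. Where a gene was below background in all arrays of a group, the fold is a bound, written as at least N-fold.

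Of the 35 genes, 20 exceeded background on all 4 arrays, 6 on 3, 2 on 2 and 7 on a single array. By population, 25 were above background in naive cells, 28 in Blimp1-hi and 27 on both Blimp1-int arrays. Of all 46120 probes, 7301 were above it in naive cells and 6893 in Blimp1-hi, against 6695 and 6373 for the Blimp1-int pair. In all, 7 genes were above it on both Blimp1-int arrays and not in naive cells, and 4 in naive cells and on neither Blimp1-int array. The same counts were not made over all genes, so the 7 and the 4 say nothing about the group. The faintest to pass was Cdc42ep3, which exceeded the Blimp1-hi cutoff by 0.0024, and the nearest to fail was the kinesin gene Kif1a, 0.0023 short of it in naive cells. The 34 genes below background on every array included the cyclin genes Ccnd1, Ccnd3 and Ccne2, the inhibitor genes Cdkn1a, Cdkn1b and Cdkn3, the spindle checkpoint kinase gene Bub1, the complex subunit genes Anapc10, Cdc23, Cdc26 and Cdc27, and Tyms, the thymidylate synthase gene. Their levels were not resolved on these arrays, and a probe below background does not show that a gene is silent.

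**Figure D1:**
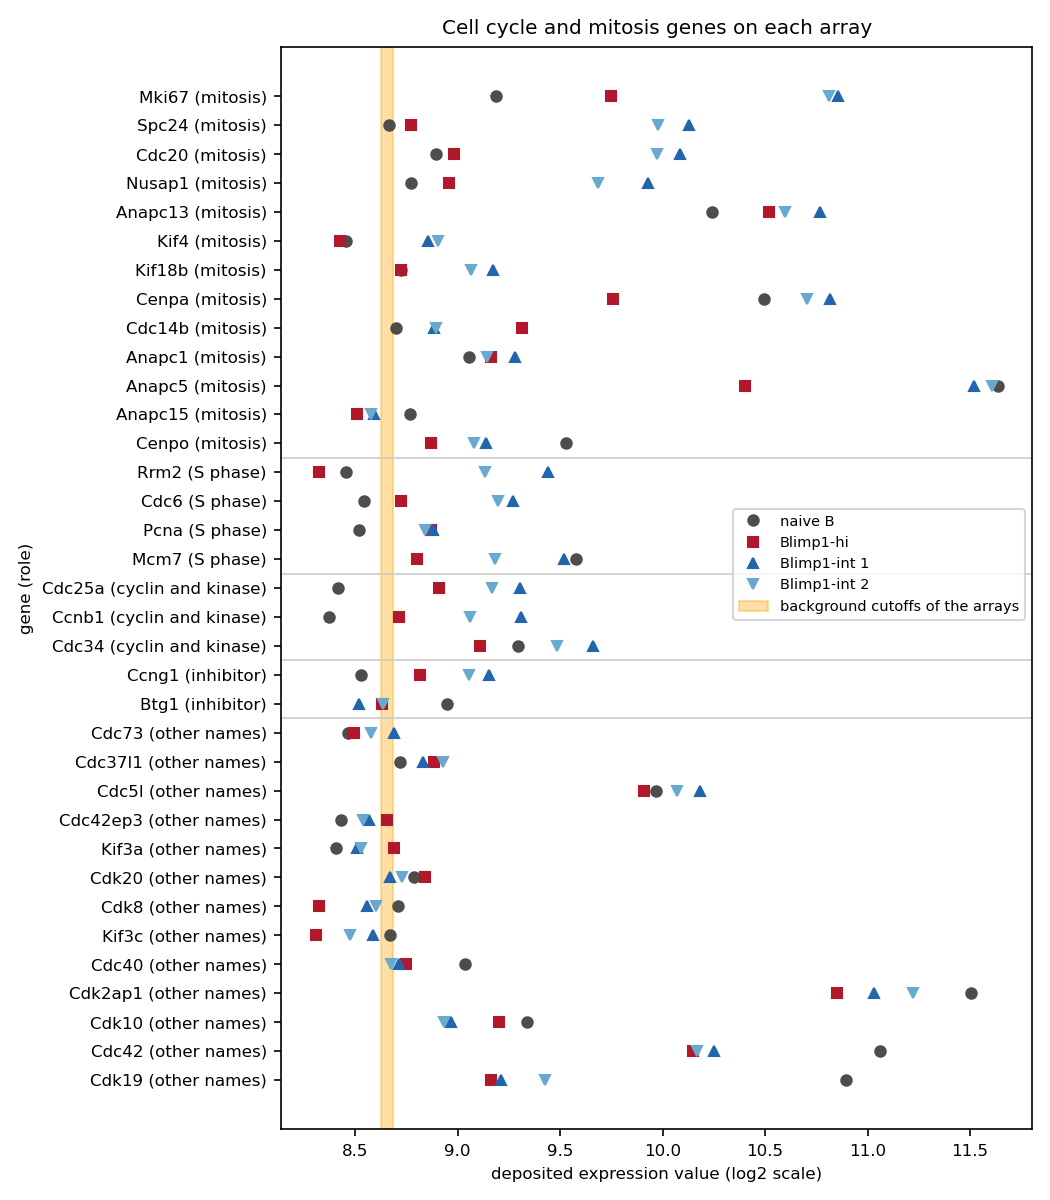
Deposited expression value (log2 scale, horizontal axis) of the 35 genes above background, grouped by role, with 1 point for each array and the range of the background cutoffs shaded. Mki67, Spc24, Cdc20 and Nusap1 lie far to the right of naive cells on both Blimp1-int arrays, and Blimp1-hi lies near naive cells for Spc24, Cdc20 and Nusap1.

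The first comparison set Blimp1-int plasma cells against naive B cells. Of 13 genes of mitosis 4 rose past 2-fold and none fell past it, namely Mki67, Spc24, Cdc20 and Nusap1, with folds between 2.05 and 3.13. Over all 35 genes 4 were called higher, against 5.81% of all genes tested, and 1 lower, against 5.63%. Each of the 4 exceeded background on every array, so its call does not rest on a value below background; among the 20 cell cycle genes with signal on all arrays the same 4 were called higher, against 7.51% of 1677 such genes, and the same 1 lower, against 7.27%. The median difference was 0.39 for the 13 mitosis genes and 0.16 for the 35, against 0.0038 for all tested genes; genes that passed the background filter only in the group where they are bright were bound to differ, and the medians include them.

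Mki67 encodes Ki-67, a protein that coats mitotic chromosomes and is present in cycling cells. Its level was 9.19 in naive cells and 9.75 in Blimp1-hi, against 10.85 and 10.81 for the Blimp1-int pair. The Blimp1-int arrays stood apart from both other arrays and lay 0.04 from each other, with Blimp1-hi between naive and Blimp1-int. The rise in Blimp1-int was 1.65 (SE 0.10, adjusted p = 1.19e-07 in the limma fit), or 3.13-fold. A further Mki67 probe was below background on all arrays.

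Spc24 encodes a subunit of the Ndc80 complex, which binds spindle microtubules at the kinetochore. It lay at 8.66 in naive cells and 8.77 in Blimp1-hi, against 10.13 and 9.98 for the Blimp1-int pair, a rise of 1.39 in Blimp1-int (SE 0.11, adjusted p = 8.36e-07 in the limma fit). Naive and Blimp1-hi cells were both close to background for this gene, while both Blimp1-int arrays were well above it.

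Cdc20, the activator of the anaphase-promoting complex, lay at 8.89 in naive cells and 8.98 in Blimp1-hi, against 10.08 and 9.97 for the Blimp1-int pair. Blimp1-hi lay within 0.09 of naive cells and the Blimp1-int arrays more than 2-fold above both in the mean (1.13 over naive, SE 0.10, adjusted p = 3.30e-06 in the limma fit). This holds for the brightest of 3 probes. The next exceeded background in Blimp1-hi alone (8.70, with 8.56 for naive cells and 8.47 and 8.50 for the Blimp1-int pair), and the mean of both probes gave a difference of 0.53, which ends the call.

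Nusap1 encodes a microtubule-binding protein of the mitotic spindle. It lay at 8.77 in naive cells and 8.96 in Blimp1-hi, against 9.93 and 9.69 for the Blimp1-int pair, a rise of 1.03 (SE 0.12, adjusted p = 1.91e-05 in the limma fit). The call sits at the 2-fold threshold: without Blimp1-int replicate 1 the difference was 0.91.

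The start regions of the called genes are shown because genes of mitosis that move together often share a pair of promoter elements, the CHR and the CCAAT box. RefSeq promoter windows (build GRCm38.p6, 250 bases before to 50 after the annotated start, 5′ to 3′ on the gene's strand) were found for 3 of the 4 genes. Capitals mark matches on either strand to the CHR (TTTGAA), to the CCAAT box (CCAAT) or to an E2F motif (TTTCGCGC, TTTGGCGC or TTCCCGCC), none of which overlap here.
Mki67, chr7:135716330-135716629, minus strand: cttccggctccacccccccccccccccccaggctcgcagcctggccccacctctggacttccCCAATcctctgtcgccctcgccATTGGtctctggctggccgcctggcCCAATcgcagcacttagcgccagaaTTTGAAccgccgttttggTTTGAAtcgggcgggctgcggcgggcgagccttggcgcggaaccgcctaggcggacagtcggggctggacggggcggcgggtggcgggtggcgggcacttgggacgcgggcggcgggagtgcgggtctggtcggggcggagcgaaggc
Cdc20, chr4:118437294-118437593, minus strand: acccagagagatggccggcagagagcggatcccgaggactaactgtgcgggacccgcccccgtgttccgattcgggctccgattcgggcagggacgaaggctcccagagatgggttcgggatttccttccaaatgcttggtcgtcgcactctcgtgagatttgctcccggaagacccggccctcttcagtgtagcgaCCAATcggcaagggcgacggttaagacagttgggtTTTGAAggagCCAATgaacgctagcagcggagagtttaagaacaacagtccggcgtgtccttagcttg
Nusap1, chr2:119618048-119618347, plus strand: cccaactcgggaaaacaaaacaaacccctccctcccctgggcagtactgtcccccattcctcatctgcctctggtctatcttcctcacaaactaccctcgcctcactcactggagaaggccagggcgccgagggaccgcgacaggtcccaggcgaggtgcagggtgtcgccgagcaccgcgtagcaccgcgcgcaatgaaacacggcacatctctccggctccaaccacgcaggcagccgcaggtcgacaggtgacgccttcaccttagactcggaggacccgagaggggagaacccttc
The Mki67 window held TTTGAA with its first base 116 and 98 bases before the start and CCAAT or its reverse complement 188, 166 and 141 bases before it. The Cdc20 window held TTTGAA 18 bases before the start and CCAAT 53 and 8 bases before it. The Nusap1 window held none of these letters. Of all 32851 windows 17.9% held TTTGAA, 37.4% CCAAT and 2.96% an E2F motif, against 19.4%, 52.8% and 8.33% of the 36 windows found for 33 of the 35 genes. A match is a string of letters, and binding was not measured.

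Among the other mitosis genes, 3 passed the test in Blimp1-int without reaching 2-fold. Kif4, a chromosome-bound kinesin, was below background in naive cells (8.45) and in Blimp1-hi (8.42) and lay at 8.85 and 8.90 in Blimp1-int, at least 1.19-fold higher than in naive cells (adjusted p = 0.00405 in the limma fit). Kif18b, a kinesin that acts at microtubule ends in mitosis, lay at 8.72 in both naive and Blimp1-hi cells and at 9.17 and 9.06 in Blimp1-int. Anapc13, a subunit of the anaphase-promoting complex, lay at 10.24 in naive cells and 10.52 in Blimp1-hi, against 10.77 and 10.59 for the Blimp1-int pair. In the opposite direction Cenpo, of the inner kinetochore, lay at 9.53 in naive cells and at 9.14 and 9.08 in Blimp1-int, a difference of -0.42 (SE 0.10, adjusted p = 0.00436 in the limma fit). By adjusted p alone 7 of 13 mitosis genes were thus higher and 1 lower. Over all 35 genes 14 were higher and 7 lower, against 27.5% and 29.1% of all genes tested. Of those higher, Kif4, Ccnb1, Cdc25a, Ccng1, Cdc6, Pcna and Rrm2 were below background in naive cells and entered the test through plasma cell arrays. Of those lower, Btg1 entered through the naive array alone. The count over the 35 therefore says nothing about the group.

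Core subunits of the anaphase-promoting complex, unlike its activator Cdc20, were not called in Blimp1-int. Anapc1, its largest subunit, lay at 9.05 in naive cells and 9.16 in Blimp1-hi, against 9.28 and 9.15 for the Blimp1-int pair, a difference of 0.16 in Blimp1-int (SE 0.11) that did not pass the test (adjusted p = 0.224 in the limma fit). Anapc15 exceeded background in naive cells alone (8.77). Anapc5 was the brightest of the 35 genes in naive cells, and its Blimp1-int difference from naive cells was -0.07 (SE 0.10, adjusted p = 0.57 in the limma fit); it was -0.31 with cyclic loess, which passed (adjusted p = 0.0269), and 0.18 without the immunoglobulin probes (adjusted p = 0.172).

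Of 5 S phase genes with a named probe 4 exceeded background, and 3 of the 4 passed the test as higher in Blimp1-int, against 27.5% of all tested genes, with bounds under 2-fold. These 3 were below background in naive cells and entered the test through plasma cell arrays, so their count says nothing about the group. Rrm2, the small subunit of ribonucleotide reductase, which makes DNA precursors, lay below background in naive cells (8.46) and in Blimp1-hi (8.33) and at 9.44 and 9.13 in Blimp1-int, at least 1.58-fold above naive cells (adjusted p = 0.000192 in the limma fit). The 2 arrays with signal were those of Blimp1-int.

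Cdc6, which loads the replicative helicase at origins, was below background in naive cells (8.54) and lay at 8.72 in Blimp1-hi and at 9.27 and 9.20 in Blimp1-int, at least 1.52-fold above naive cells (adjusted p = 0.00014 in the limma fit). Pcna, the sliding clamp of DNA polymerases, lay at 8.52 in naive cells, below background, and at 8.87, 8.88 and 8.84 on the Blimp1-hi and both Blimp1-int arrays. All 3 plasma cell arrays were thus alike for Pcna, which was at least 1.18-fold above naive cells in both populations (adjusted p = 0.0131 for Blimp1-int and 0.0274 for Blimp1-hi in the limma fit).

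Mcm7, a subunit of the helicase itself, had its highest value in naive cells, 9.58, against 8.80 in Blimp1-hi and 9.52 and 9.18 in Blimp1-int. Its Blimp1-int arrays lay 0.34 apart, the widest gap of the pair among the 35 genes, and the difference from naive cells of -0.22 (SE 0.13) did not pass the test (adjusted p = 0.174 in the limma fit).

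Among cyclins and further enzymes of the cycle, 3 exceeded background and passed the test as higher in Blimp1-int, against 27.5% of all tested genes, none at 2-fold. Of these, Ccnb1 and Cdc25a were below background in naive cells and entered the test through plasma cell arrays, so the count says nothing about the group. Ccnb1, cyclin B1, the partner of the mitotic kinase, was below background in naive cells (8.37) and lay at 8.71 in Blimp1-hi and at 9.31 and 9.06 in Blimp1-int, at least 1.47-fold above naive cells (adjusted p = 0.000138 in the limma fit). Cdc25a, the phosphatase that activates cyclin-dependent kinases, lay at 8.41 in naive cells, below background, 8.91 in Blimp1-hi, and 9.30 and 9.17 in Blimp1-int, at least 1.52-fold above naive cells (adjusted p = 5.07e-05 in the limma fit). Both genes were lowest in naive cells and highest in Blimp1-int. Cdc34, a ubiquitin-conjugating enzyme, lay at 9.29 in naive cells and 9.11 in Blimp1-hi, against 9.66 and 9.49 for the Blimp1-int pair (difference 0.28 in Blimp1-int, SE 0.11, adjusted p = 0.0486 in the limma fit).

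The brakes of the cycle were represented by 2 genes. Btg1, an antiproliferative gene of resting lymphocytes, exceeded background in naive cells alone (8.95), with 8.63 in Blimp1-hi and 8.52 and 8.64 in Blimp1-int, and was at least 1.21-fold lower in Blimp1-int (adjusted p = 0.0111) and at least 1.23-fold lower in Blimp1-hi (adjusted p = 0.049) in the limma fit. The latter did not pass under 75th percentile scaling (adjusted p = 0.102), cyclic loess (0.0654) or without the immunoglobulin probes (0.0691) in the limma fit. A further Btg1 probe also exceeded background in naive cells alone, at 8.79. Ccng1, cyclin G1, a target of p53, lay at 8.53 in naive cells, below background, 8.82 in Blimp1-hi, and 9.15 and 9.05 in Blimp1-int, at least 1.39-fold above naive cells in Blimp1-int (adjusted p = 0.000605 in the limma fit). Btg1 entered the test through the naive array alone and Ccng1 through plasma cell arrays. The filter thus set their opposite directions in Blimp1-int, which say nothing about the group.

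The name rule also took 30 genes with a named probe whose proteins work largely outside the core cycle, of which 13 exceeded background: none was called higher in Blimp1-int, against 5.81% of all tested genes, 5 passed the test as lower, against 29.1%, and 1 of these was called, against 5.63%. That gene was Cdk19, a kinase of the Mediator complex of transcription, with 10.89 in naive cells and 9.16 in Blimp1-hi, against 9.21 and 9.42 for the Blimp1-int pair. All 3 plasma cell arrays lay more than 2-fold below the naive array, with differences of -1.58 in Blimp1-int (SE 0.12, adjusted p = 4.8e-07) and -1.73 in Blimp1-hi (SE 0.13, adjusted p = 1.02e-06) in the limma fit. Cdk8, the related Mediator kinase, was near background throughout (8.71 in naive cells and below background on the other arrays).

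Cdc42, a GTPase that organises actin and cell polarity, lay at 11.06 in naive cells and 10.15 in Blimp1-hi, against 10.25 and 10.17 for the Blimp1-int pair. The plasma cell arrays lay close together and below naive cells, with differences of -0.85 in Blimp1-int (SE 0.10) and -0.92 in Blimp1-hi (SE 0.12), differences that passed the test (adjusted p = 2.96e-05 and 6.51e-05 in the limma fit) and stayed under 2-fold. Cdk2ap1, which binds Cdk2, lay at 11.50 in naive cells and 10.85 in Blimp1-hi, against 11.03 and 11.22 for the Blimp1-int pair, with differences of -0.38 in Blimp1-int (adjusted p = 0.0132) and -0.65 in Blimp1-hi (adjusted p = 0.00138) in the limma fit. Normalized again without the immunoglobulin probes, neither passed (-0.15, adjusted p = 0.286, and -0.34, adjusted p = 0.0528 in the limma fit), and cyclic loess gave -0.59 in Blimp1-int. Cdk10 (-0.39) and the splicing gene Cdc40 (-0.34) passed as lower in Blimp1-int. The remaining genes of this group lay between -0.14 and 0.17 in Blimp1-int, among them the splicing gene Cdc5l, the transcription elongation gene Cdc73 and the transport kinesin genes Kif3a and Kif3c, and none passed the test.

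**Figure D2:**
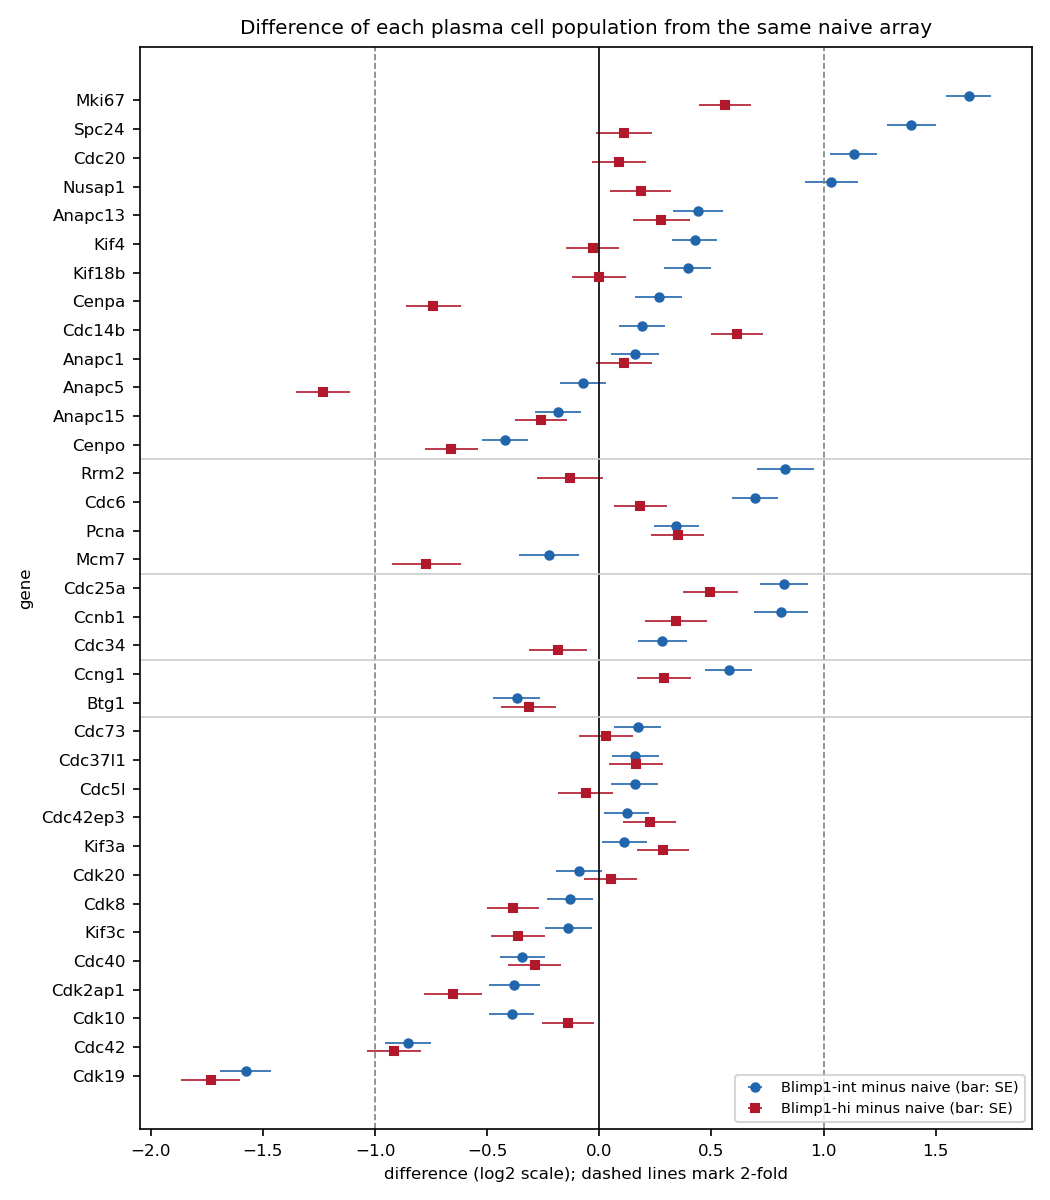
Difference of Blimp1-int (circles) and of Blimp1-hi (squares) from the same naive array, on the log2 scale with SE bars, for the 35 genes grouped by role as mitosis, S phase, cyclins and kinases, inhibitors and other names from top to bottom. Only Mki67, Spc24, Cdc20 and Nusap1 pass 2-fold upward, in Blimp1-int alone, and Cdk19 is the only gene past 2-fold downward in both populations.

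The second comparison set Blimp1-hi plasma cells against the same naive array, so that both comparisons share that control. In Blimp1-hi no cell cycle gene was called higher, against 4.37% of all genes tested. By adjusted p alone 4 were higher, against 21.2%, and 7 at an unadjusted p under 0.05, against 661 of all 2702 genes. In the other direction 2 were called lower, Cdk19 and Anapc5, against 7.51%, and 10 by adjusted p alone, against 29.8%. Among genes with signal on all arrays the counts were again 0 and 2, against 5.43% and 9.96%. The median over the 35 genes was -0.00086, against -0.06 for all tested genes. Over all genes 118 were called higher and 203 lower; after normalization again without the immunoglobulin probes the split was 135 and 133.

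Anapc5, a scaffold subunit of the anaphase-promoting complex, was the mitosis gene called lower. It lay at 11.64 in naive cells and 10.40 in Blimp1-hi, against 11.52 and 11.61 for the Blimp1-int pair, so that Blimp1-hi alone stood apart, with a difference of -1.23 from naive cells (SE 0.12, adjusted p = 6.75e-06 in the limma fit). Without the immunoglobulin probes the difference was -0.95, which ends the call. Cenpa, the histone variant that marks centromeres, was also lowest in Blimp1-hi, by less than 2-fold: 10.50 in naive cells and 9.76 in Blimp1-hi, against 10.82 and 10.70 for the Blimp1-int pair, a difference of -0.74 in Blimp1-hi (SE 0.12, adjusted p = 0.000377 in the limma fit). Mcm7 (-0.77, SE 0.15, adjusted p = 0.00142) and Cenpo (-0.66, SE 0.12, adjusted p = 0.000699) also passed the limma test as lower in Blimp1-hi.

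Of the 4 genes called higher in Blimp1-int, Mki67 passed the test in Blimp1-hi too, by 0.56 (SE 0.12, adjusted p = 0.00203 in the limma fit), a difference from naive cells that was 34.0% of the one in Blimp1-int on the log2 scale. For Cdc20 this share was 7.62%, for Spc24 7.88% and for Nusap1 17.8%, and the differences of these 3 genes did not pass the test in Blimp1-hi (adjusted p = 0.571, 0.485 and 0.281 in the limma fit). Cdc25a was at least 1.21-fold above naive cells (adjusted p = 0.00582). Cdc14b, a phosphatase of the family that ends mitosis in budding yeast, was the only mitosis gene highest in Blimp1-hi: 8.70 in naive cells and 9.31 in Blimp1-hi, against 8.88 and 8.89 for the Blimp1-int pair. Its difference from naive cells was 0.61 (SE 0.12, adjusted p = 0.00106 in the limma fit).

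The third comparison set the plasma cell populations against each other and does not use the naive array. Of 13 genes of mitosis 5 were called lower in Blimp1-hi than in Blimp1-int and none higher, namely Spc24, Anapc5, Mki67, Cdc20 and Cenpa, with folds between 2.005 and 2.43. These 5 were among 11 genes called lower of all 2702 tested, 0.407% of them, and 7 genes were called higher, 0.259%, none of them a cell cycle gene by name. With the test limited to genes above background on all 4 arrays, the same 5 were called, of 20 cell cycle genes, as lower, against 0.656% of 1677 genes, and none as higher, against 0.179%. By adjusted p alone 13 of the 35 genes were lower, against 9.25% of all genes tested, and 1 higher, Cdc14b, against 2.74%. Of the 13, Rrm2 and Kif4 exceeded background on the Blimp1-int arrays alone, so the filter bound them to be lower. At an unadjusted p under 0.05, 18 of the 35 were lower and 2 higher, against 525 and 198 of all 2702 genes. The macrophage-associated gene Apoe was higher in Blimp1-hi (9.91) than on the Blimp1-int arrays (8.76 and 8.97). Vcam1, the other marker of that list above background, was not: 8.46 in Blimp1-hi, against 8.44 and 8.99 for the Blimp1-int pair. C1qa, C1qb, Csf1r and Cd68 were below background on all arrays. The part of such cells in these differences was not tested.

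The Blimp1-hi minus Blimp1-int difference was -1.28 for Spc24 (SE 0.11, adjusted p = 9.93e-05), -1.16 for Anapc5 (SE 0.10, adjusted p = 0.000123) and -1.09 for Mki67 (SE 0.10, adjusted p = 0.000123) in the limma fit. It was -1.05 for Cdc20 (SE 0.10, adjusted p = 0.000152) and -1.004 for Cenpa (SE 0.11, adjusted p = 0.00019) in the same fit. In each of these 5 genes the Blimp1-hi value lay below both Blimp1-int arrays by more than those arrays differed from each other. The 2-fold threshold already forced this, since the widest gap of the pair among the tested cell cycle genes was 0.34. The separation is therefore no further evidence for the calls. The calls of Cdc20 and Cenpa sit at the threshold: without Blimp1-int replicate 1 the differences were -0.99 and -0.95, and with it gone 3 genes were past 2-fold. The Cdc20 difference was -0.41 with the mean of its probes, and that of Cenpa was -0.97 with 75th percentile scaling, -0.95 with cyclic loess and -0.99 without the immunoglobulin probes.

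Below the 2-fold threshold the same direction was found in S phase and cyclin genes. Rrm2 was at least 1.55-fold lower in Blimp1-hi, where it was below background (adjusted p = 0.000982), and Nusap1 differed by -0.85 (SE 0.12, adjusted p = 0.00124) in the limma fit. Mcm7 (-0.55), Cdc6 (-0.51), Ccnb1 (-0.47), Cdc34 (-0.47) and Kif18b (-0.40) also passed the test, and Kif4 was at least 1.17-fold lower. With the mean of probes in place of the brightest over all genes, Mcm7 (adjusted p = 0.0572) and Ccnb1 (adjusted p = 0.0596) no longer passed in the limma fit. Both have a single named probe, so their differences were unchanged. Only the spread shared across genes and the adjustment moved. Pcna did not pass (0.01, SE 0.10, adjusted p = 0.98), nor did Cdc25a (-0.33, SE 0.11, adjusted p = 0.0688) or Ccng1 (-0.29, SE 0.10, adjusted p = 0.0957) in the limma fit, though with no filter on dim probes the latter pair did (adjusted p = 0.0157 and 0.0408), and Cdc25a also with an intensity trend (0.0431). Of the 13 genes with roles largely outside the cycle none passed, with differences between -0.27 and 0.25; for Cdk19 the difference was -0.16 (SE 0.12, adjusted p = 0.426). By position, Blimp1-hi lay below both Blimp1-int arrays in 25 of the 35 genes, above both in 6 and between them in 4, while over all tested genes it lay below both in 51.9%. Of the 25, Rrm2, Kif4 and Cdc73 exceeded background on Blimp1-int arrays alone, and of the 6, Cdc42ep3 and Kif3a did so in Blimp1-hi alone. The filter tilted the positions of these genes.

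**Figure D3:**
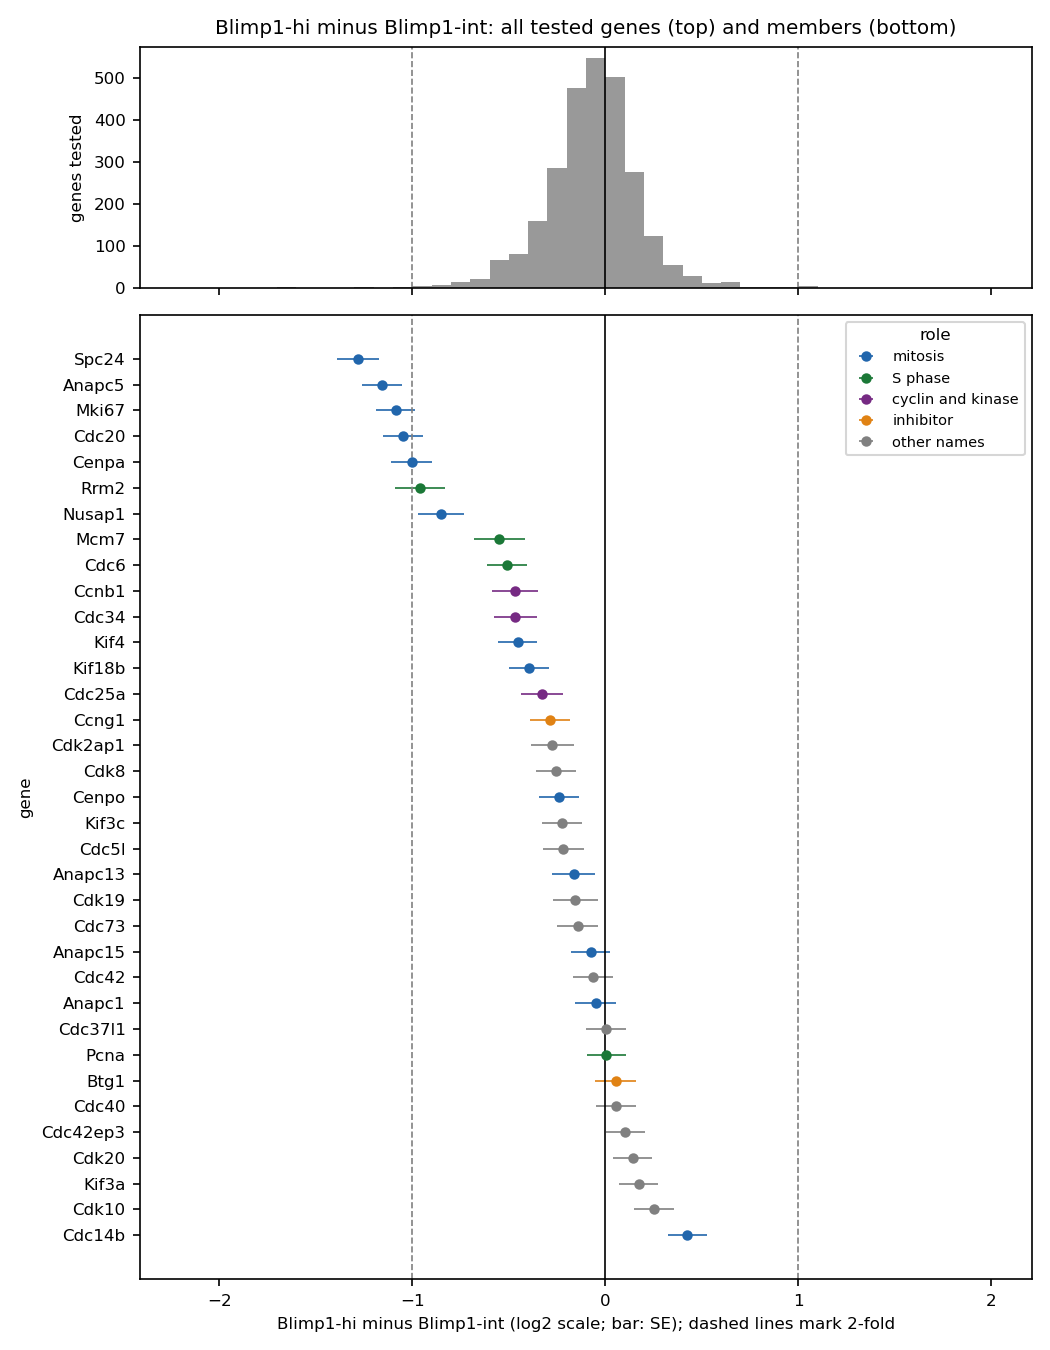
Top: number of genes (vertical axis) by Blimp1-hi minus Blimp1-int difference (log2 scale) over all 2702 tested genes. Bottom: the same difference with its SE for each of the 35 genes, coloured by role, where Spc24, Anapc5, Mki67, Cdc20 and Cenpa lie past 2-fold on the lower side and the genes of other names lie between -0.27 and 0.25.

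In order of level, 11 of the 35 genes ran from naive through Blimp1-hi to Blimp1-int, among them Mki67, Spc24, Cdc20, Nusap1, Cdc6, Ccnb1 and Cdc25a. A further 9 ran from Blimp1-hi through Blimp1-int to naive, among them Anapc5, Cenpo, Mcm7, Cdk19 and Cdc42. In 6 Blimp1-hi was lowest and Blimp1-int highest, among them Cenpa and Rrm2. The orders were not counted over all tested genes, so these counts say nothing about the group. Cdc6, Ccnb1 and Cdc25a were below background in naive cells, and Rrm2 exceeded it on the Blimp1-int arrays alone. The filter tilted the order of such genes. Neighbours in these orders often lay within their spread: for Spc24, Cdc20 and Nusap1 naive and Blimp1-hi did not differ past the test, and for Cdc42 and Cdk19 the plasma cell populations did not. For Cenpa the Blimp1-int minus naive difference of 0.26 (SE 0.11) missed the threshold (adjusted p = 0.0505 in the limma fit) but passed under 75th percentile scaling (0.29, adjusted p = 0.0231), without the immunoglobulin probes (0.38, adjusted p = 0.0123) and with no filter on dim probes (adjusted p = 0.0287).

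Proliferation genes that the name rule does not take were followed as a list of 110 genes, of which 48 had a named probe and 24 exceeded background. In Blimp1-int 2 of the 24 were called higher, against 5.81% of all tested genes, and none lower, against 5.63%. By adjusted p alone 13 were higher, against 27.5%, and 4 lower, against 29.1%, with a median of 0.31 against 0.0038 for all tested genes. Some of the 24 passed the background filter only through the Blimp1-int arrays. H2az1, the replication-independent histone variant H2A.Z, lay at 8.99 in naive cells and 9.90 in Blimp1-hi, against 10.74 and 10.14 for the Blimp1-int pair (1.45 in Blimp1-int, SE 0.19, adjusted p = 4.61e-05 in the limma fit). Its Blimp1-int arrays lay far apart, and its Blimp1-hi difference from Blimp1-int did not pass the test (adjusted p = 0.0822). E2f2, a transcription factor of the S phase program, lay at 8.90 in naive cells and 9.24 in Blimp1-hi, against 9.95 and 10.05 for the Blimp1-int pair (1.10, SE 0.10, adjusted p = 3.81e-06 in the limma fit).

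In Blimp1-hi 1 of the 24 was called lower, against 7.51% of all tested genes, and none higher, against 4.37%. At an unadjusted p under 0.05 in the limma fit 4 were higher, against 661 of all 2702 genes. The called gene was Cdca7, a target of Myc and E2F factors, which lay at 9.83 in naive cells, 8.51 in Blimp1-hi, below background, and 8.89 and 8.85 in Blimp1-int, at least 2.26-fold lower in Blimp1-hi (adjusted p = 3.5e-06 in the limma fit). Between the plasma cell populations none of the 24 was called, and all 24 differences were below 0, against 1673 of all 2702 tested genes (median -0.38, against -0.06). Foxm1, Smc3, Tacc3 and Tipin exceeded background on Blimp1-int arrays alone, so the filter tilted their differences below 0. The median and the counts of this comparison include them. By adjusted p alone 12 of the 24 passed limma's test as lower, Foxm1 among them, against 9.25%. At an unadjusted p under 0.05 20 did, against 525 of the 2702. The widest were those of Uhrf1, which binds hemimethylated DNA behind replication forks (-0.92, SE 0.13, adjusted p = 0.0012), Plk1, the mitotic Polo kinase (-0.79, SE 0.11, adjusted p = 0.00153), Birc5, the chromosomal passenger survivin (-0.78, SE 0.10, adjusted p = 0.000982), and E2f2 (-0.76, SE 0.10, adjusted p = 0.0011), in the limma fit. Plk1 lay at 8.77 in naive cells and 8.92 in Blimp1-hi, against 9.81 and 9.60 for the Blimp1-int pair, and Birc5 at 8.67, 8.72, and 9.56 and 9.45, so that both were near the naive level in Blimp1-hi, as Cdc20 and Spc24 were.

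**Figure D4:**
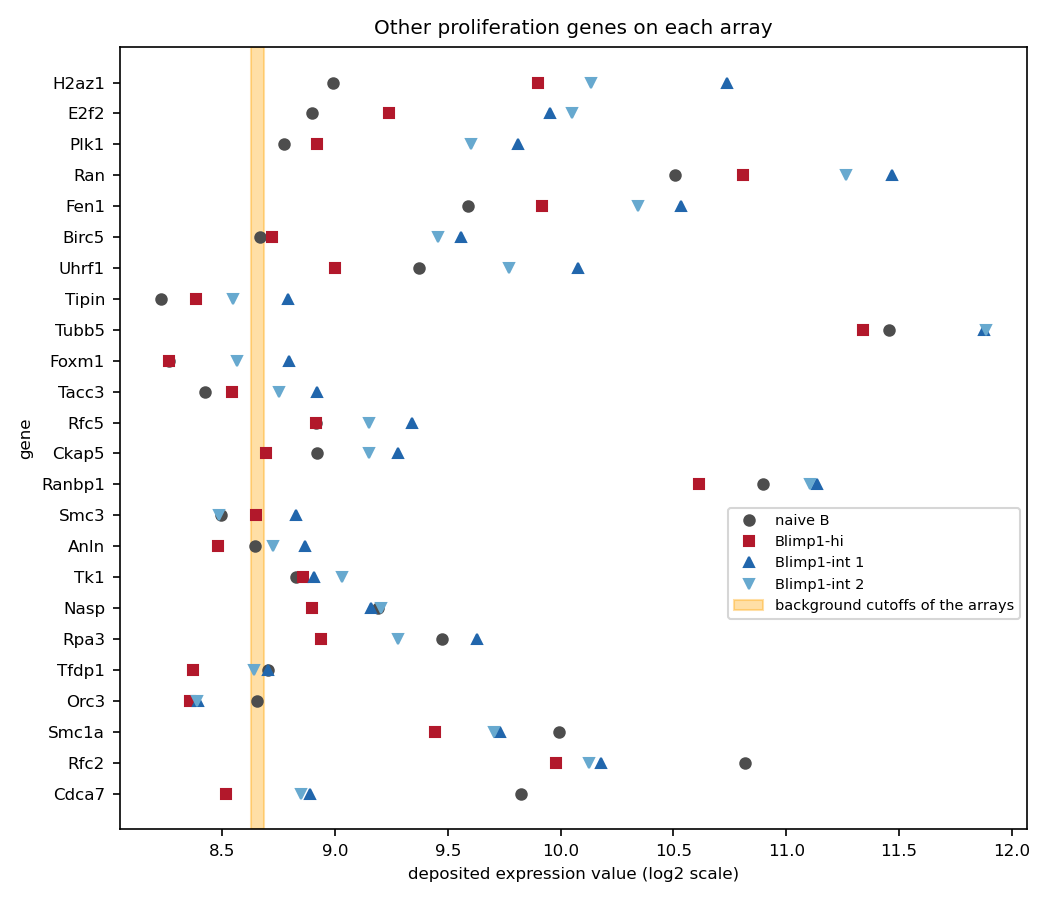
Deposited expression value (log2 scale, horizontal axis) of the 24 further proliferation genes above background, with 1 point for each array and the range of the background cutoffs shaded. H2az1, E2f2, Plk1 and Birc5 lie to the right on the Blimp1-int arrays, and Cdca7 and Rfc2 are highest in naive cells.

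Of 20 further quiescence and antiproliferative genes 7 had a named probe and 6 exceeded background. Klf2, a transcription factor of resting lymphocytes, was the only one called. It was lower in both populations, against 5.63% of all tested genes called lower in Blimp1-int and 7.51% in Blimp1-hi. Its level was 12.11 in naive cells and 8.90 in Blimp1-hi, against 9.24 and 9.40 for the Blimp1-int pair. Both plasma cell populations lay far below naive cells, and the Blimp1-hi minus Blimp1-int difference was -0.42 (SE 0.11, adjusted p = 0.0281 in the limma fit). Foxo1, which restrains lymphocyte growth, passed the test as lower in both populations (-0.58 in Blimp1-int, -0.52 in Blimp1-hi). Ing1 passed as higher in both (0.43 in Blimp1-int, 0.42 in Blimp1-hi), and Tob2 did not pass (0.26 and 0.30). Lzts2 exceeded background in Blimp1-hi alone, at least 1.25-fold above naive cells (adjusted p = 0.00156 in the limma fit), and Btg3 on 1 Blimp1-int array alone.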

How the data were processed

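Each of the 4 arrays holds 46120 probes. Background was set from foreign-sequence probes. The log2 values used are those the authors deposited, normalized with lumi (no version) per the submitters' processing notes; the background step and transform are not given in the sources used here. Nearly equal sorted values on all arrays are what quantile normalization leaves, and on a variance-stabilized scale the folds of dim genes are understated. The 8 value columns of another deposited table, with raw signals and detection p-values, carry names that match no sample and were left out.

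Probes were named through the NCBI gene number in the identifier (11897 identifiers, 9832 matched to RefSeq genes of assembly GRCm38.p6, used for names), a RefSeq accession (9) or an immunoglobulin constant region (9). Each gene was represented by its brightest probe among those above background, 37 of the 99 cell cycle probes being above it; a probe cannot tell near-identical copies apart. A linear model with 3 groups was fitted in limma 3.58.1 (R 4.3.3) with eBayes moderation, leaving 1 residual degree of freedom (prior 10.3). For a bound, each array of the dim group was given the dimmest value that still exceeded background, or the probe's own where that was larger. The steps were tested on simulated data. Named with all values were genes called in any comparison or past 0.5 at an adjusted p under 0.05, and all S phase and inhibitor genes; of the further lists, called members or else the 4 widest differences. Further names were picked with their values in view. The members and lists were chosen with earlier results of these data known. Alternatives were other scalings, probe choices, background filters, variance models, thresholds and leaving out each Blimp1-int array.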

Additional observations from a re-analysis of the deposited data

How the results depend on the processing

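With the test alone and no 2-fold minimum, 21 of the 35 cell cycle genes were called in Blimp1-int over naive and 14 in Blimp1-hi over naive. Between the plasma cell populations 14 were called. Of the 24 further proliferation genes 17, 7 and 12 were called in these comparisons. Over all tested genes 27.5% passed as higher and 29.1% as lower in Blimp1-int, and 21.2% and 29.8% in Blimp1-hi. Between the plasma cell populations the shares were 2.74% and 9.25%. The fold minimum thus sets the counts. Normalized again without immunoglobulin probes, 1 cell cycle gene was called in Blimp1-hi against naive, in place of 2. With only genes above background on every array, 0 further proliferation genes were called there, since Cdca7 is then not tested. Without either Blimp1-int replicate no test is possible, and between 3 and 6 cell cycle genes and between 0 and 1 further proliferation genes were past 2-fold between the plasma cell populations. The other counts stayed within 1.5 times, and the medians moved by less than the spread of the pair, under every alternative run (75th percentile scaling, cyclic loess, mean of probes, no filter, a cutoff of 2 standard deviations, an intensity trend). No call changed sign. No paired analysis was possible because the naive and Blimp1-hi groups have 1 array each. Signal over background limits the dim genes, 15 of 35 being below it on at least 1 array.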
